A study of Mus musculus with 9 samples.

Results

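The dystrophin glycoprotein complex was followed through 8 of its genes, Dmd, Utrn, Dag1, Sgca, Sgcb, Sgcd, Dtna and Lama2, in 3 kinds of mouse cells. The genes were chosen by name, with earlier results of these data known. Every probe set annotated to exactly 1 of these symbols was taken, which gave 24 of the 45037 probe sets that are not controls, and 8 of 18193 genes. Dtna had 7 probe sets, Dmd and Dag1 4 each, Utrn and Sgcb 3 each, and Sgca, Sgcd and Lama2 1 each. Probe sets of 1 gene need not read the same transcripts, and they are not replicates of each other.

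The complex spans the surface membrane of striated muscle fibres. Inside the cell, dystrophin binds actin filaments and the tail of beta-dystroglycan, while alpha-dystroglycan on the outside holds laminin of the basement membrane through its sugar chains. The sarcoglycans are membrane proteins that stabilise this link, and dystrobrevin and the syntrophins dock signalling proteins on dystrophin. Loss of dystrophin, of a sarcoglycan or of the laminin alpha-2 chain causes muscular dystrophy, in many forms with disease of the heart.

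Chemically induced cardiomyocyte-like cells (CiCM) were fibroblasts exposed to 6 small molecules, after which clusters that beat were picked on day 24. The compounds were CHIR99021 (10 µM), RepSox (10 µM), Forskolin (50 µM), VPA (0.5 mM), Parnate (5 µM) and TTNPB (1 µM). Cardiomyocytes (CM) came from mouse hearts, with age and strain not given in the sources used here. Mouse embryonic fibroblasts (MEF) came from C57BL/6 embryos of embryonic day 13.5. No transgene or deletion is named for any group. Each group had 3 samples, called biological replicates by the labels, with 1 array each. Nothing says that they came from separate cultures or animals, so p-values measure the spread between these samples. The CiCM samples are picked clusters, and no sort for a cell type is named.

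Values are log2 signals of a 1-colour Affymetrix array, on which a difference of 1 is a doubling, and 6.58 is the median of the whole table. Across all probe sets that are not controls, arrays of 1 group correlated at r = 0.912 to 0.915 in CiCM, 0.891 to 0.897 in CM and 0.923 to 0.929 in MEF. The labels were set against marker genes. The 12 cardiomyocyte markers reached 6.58 for 6 genes in CiCM, 12 in CM and 2 in MEF, and Tnni3, Myl7, Ryr2, Pln, Mybpc3 and Nkx2-5 lay under it in CiCM. Their summed linear signals were 47255.7 to 48116.9 in CiCM, 364793.2 to 428129.9 in CM and 552.8 to 776.2 in MEF. The brightest in CiCM were Tnnt2, Actc1 and Myl2, at means of 14.50, 13.66 and 13.35. Myl3, Myh6 and Nppa averaged 8.61, 7.13 and 6.64 there, against 15.55, 15.72 and 13.26 in CM. The 13 skeletal muscle markers reached the line for 13 genes in CiCM, 4 in CM and 0 in MEF, with sums of 169820.5 to 188419.9 in CiCM, 29566.2 to 35738.7 in CM and 272.4 to 317.6 in MEF. Ckm was the brightest of these in CM, at a mean of 14.63, and averaged 13.23 in CiCM. In CM, Myod1, Myog, Myh1, Myh4, Myh8, Myh3, Tnnt3, Mymk and Chrna1 lay under the line. The 10 fibroblast markers reached it in all 3 groups, with summed linear signals of 131945.3 to 137216.7 in CiCM, 50013.1 to 65950.9 in CM and 145118.6 to 146767.4 in MEF. The 6 endothelial markers reached it for 0 genes in CiCM, 6 in CM and 1 in MEF, with summed signals of 179.5 to 223.5 in CiCM, 11112.7 to 12318.0 in CM and 426.4 to 681.6 in MEF. The 6 macrophage and immune markers summed to 1234.6 to 1581.3 in CiCM, 7399.2 to 8835.8 in CM and 7252.1 to 7391.3 in MEF, with 3, 5 and 6 genes at the line. Of 4 adipocyte markers 3 had a probe set, with sums of 156.2 to 356.9 in CiCM, 37837.8 to 45952.0 in CM and 2021.6 to 2194.3 in MEF. Fabp4, which fat cells share with capillary endothelium, read 15.00, 15.20 and 15.25 in CM. Among the CM arrays, replicate 1 differed from replicates 2 and 3 in markers of several kinds. The atrial light chain Myl7 read 15.05 there against 9.25 and 5.98. The fat markers Adipoq and Cidec read 13.50 against 6.21 and 5.09, and 10.70 against 1.81 and 0.0. Of the mesothelial and epicardial markers, Upk3b read 10.94 against 6.69 and 3.47, and Msln 9.19 against 7.20 and 3.255. Wt1 of the same list was level, at 7.96 against 7.84 and 7.87. The part of these cell mixtures in the results below was not tested. In bulk RNA, fewer cells of a type and less RNA per cell cannot be told apart.

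Most probe sets of the complex exceeded their MEF level both in CiCM and in CM, while CiCM and CM differed at fewer of them. Calls needed a limma adjusted p under 0.05 together with a log2 difference of 1 or more, and a probe set was tested where a group mean reached 6.58. This left 22 of the 24, and 4 of the 22 passed with a MEF mean under that line. CiCM exceeded MEF at 15 of 22 probe sets, against 11.8% of all 26547 probe sets called higher. None was called lower by limma, against 12.2% of all, with 2 lower at an unadjusted p under 0.05, both also at an adjusted p under 0.05 but short of the minimum size. CM exceeded MEF at 17 of 22, against 24.0% of all, or at 15 without CM replicate 1. None was called lower than MEF in CM by limma, against 21.6% of all, with 2 lower at an unadjusted p under 0.05, 1 of them also after adjustment but short of the size. With the arrays levelled on their hybridisation controls instead, CM had 7 probe sets higher and 2 lower than MEF. Among all 26485 probe sets tested under that levelling, 3190 were higher and 11520 lower. CiCM lay below CM at 5 of 22, against 20.4% of all called lower, a share near the background. None was called higher than CM by limma, against 15.8% of all, with 4 higher at an unadjusted p under 0.05, all 4 also after adjustment but short of the size. By gene, the 0 of 8 higher in CiCM than in CM compare with 16.6% of all genes, and the 0 of 8 lower than MEF with 12.3% for CiCM and 21.9% for CM; at a p under 0.05 these were 0, 2 and 1, before and after adjustment alike. The CiCM to CM split depends on the scaling: centring each array on its median gave 3 higher and 2 lower, and levelling on the hybridisation controls gave 5 higher and 1 lower. The split of all probe sets moved the same way. Centring gave 6142 higher and 3846 lower of 26373 tested, and levelling 8324 higher and 2857 lower of 26485. The median difference of the tested probe sets of the complex was 1.48 for CiCM minus MEF, 1.53 for CM minus MEF and -0.12 for CiCM minus CM, beside medians over all tested probe sets of -0.04, 0.04 and -0.07. Arrays of CiCM lay wholly above those of MEF at 18 of the 22 and wholly below at 3, against 29.6% and 34.2% of all probe sets. For CM against MEF these were 18 and 1, against 37.8% and 36.3%, and for CiCM against CM 5 and 7, against 30.6% and 34.8%.

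**Figure D1:**
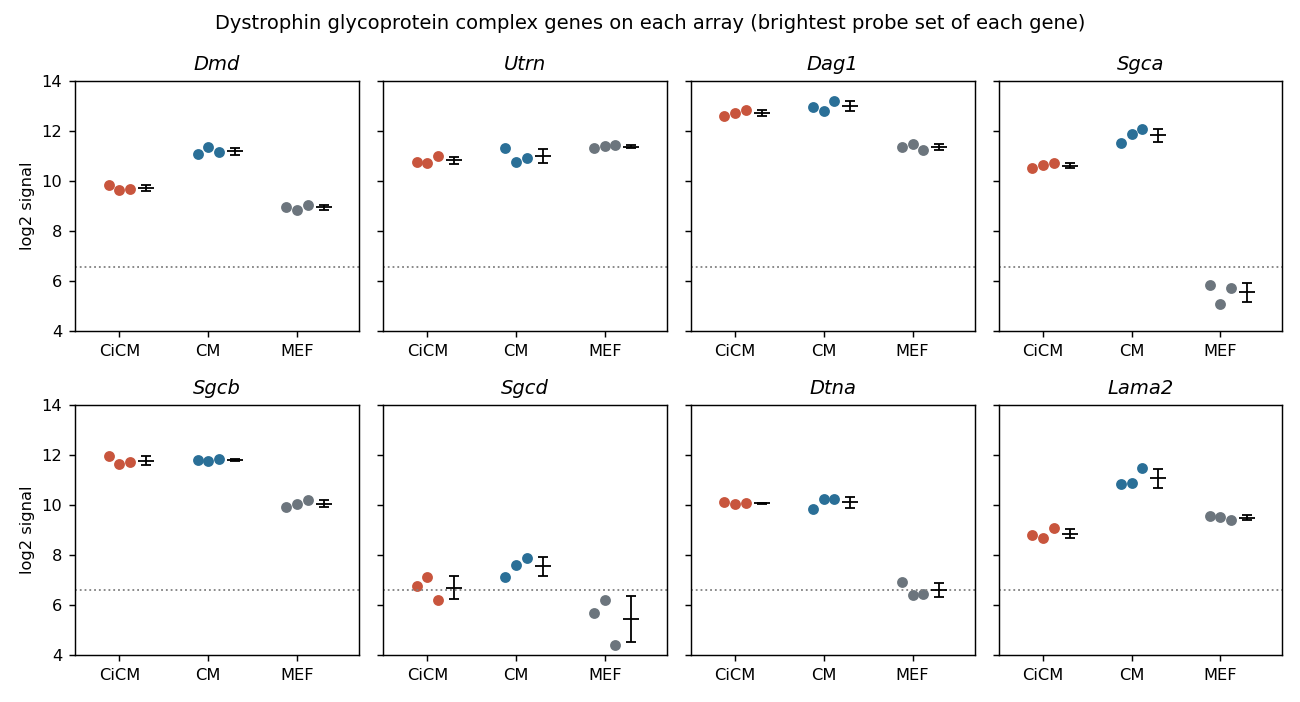
Log2 signal (vertical axis) of the brightest probe set of each of the 8 genes on each array, with CiCM left of CM and CM left of MEF; bars give the mean and SD of 3 arrays and the dotted line the table median of 6.58. Sgca separates most, with MEF arrays under the dotted line, while Utrn lies between 10.74 and 11.44 on all 9 arrays.

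Dmd encodes dystrophin, the link between actin and dystroglycan. Its brightest probe set, 1448665_at, read 9.86, 9.65 and 9.69 in CiCM, 11.07, 11.35 and 11.17 in CM, and 8.98, 8.86 and 9.05 in MEF. The groups did not overlap, and CiCM lay between MEF and CM. Dmd was higher in CM than in MEF by 2.24 ± 0.11 (SE; limma adjusted p = 3.09e-08), a 4.71-fold difference, and lower in CiCM than in CM by -1.47 ± 0.11 (adjusted p = 1.38e-06). Levelling on the hybridisation controls took the CiCM to CM difference to -0.89, under the size set for a call. CiCM minus MEF was 0.77 ± 0.11 (adjusted p = 2.65e-04), which missed the minimum size for a call. The other probe sets kept the order of the means, with MEF lowest and CM highest. Probe set 1443315_at averaged 7.74 ± 0.28 in CiCM, 8.66 ± 0.35 in CM and 5.17 ± 0.16 in MEF (SD, n = 3), which gave 2.57 for CiCM minus MEF, called higher, and 3.49 for CM minus MEF. Its CiCM minus CM difference of -0.92 was not called, but was without CM replicate 1 or CiCM replicate 3, at -1.04 in each case. Probe set 1417307_at gave 0.56 for CiCM minus MEF, not called, 1.80 for CM minus MEF and -1.24 for CiCM minus CM, both called, though not after levelling (0.9955 and -0.67). Probe set 1430320_at stayed under 6.58 in every group mean and was not tested. The call of Dmd in CiCM against MEF thus differed between its probe sets, and over the mean of its probe sets the difference was 1.25.

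Utrn encodes utrophin, a close relative of dystrophin that many cell types carry and that sits at the neuromuscular junction of adult muscle. Its brightest probe set, 1452222_at, read 10.75, 10.74 and 11.00 in CiCM, 11.32, 10.78 and 10.94 in CM, and 11.31, 11.39 and 11.44 in MEF. The CiCM arrays lay below the MEF arrays, while CM replicate 1 overlapped with them. No difference reached the minimum size: CiCM minus MEF was -0.55 ± 0.14 (limma adjusted p = 0.00687) and CM minus MEF -0.36 ± 0.14 (adjusted p = 0.0335). CM minus MEF came to -1.17 and was called after levelling on the hybridisation controls. The CiCM to CM difference was -0.18 ± 0.14 (adjusted p = 0.261), and its sign turned under centring on array medians (0.13) and under that levelling (0.39). Of the dimmer probe sets, 1427569_a_at differed by -0.20 for CiCM minus MEF and 0.03 for CM minus MEF. Probe set 1426892_at, near the median of the table, read 5.72, 6.16 and 3.66 in CM, and its differences of -1.35 and -1.47 from MEF did not pass (adjusted p = 0.113 and 0.0643). Without CM replicate 3, the CiCM difference passed (adjusted p = 0.0233), and without CM replicate 2 the CM difference did, at -1.96 (adjusted p = 0.0260).

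The start regions of Dmd and Utrn are shown because the 2 genes encode related proteins and took different courses over the groups. The sequences are from RefSeq on GRCm38.p6, 5′ to 3′ on the gene's strand, from 250 bases before to 50 after a transcript start. Capitals mark E-boxes (CANNTG), the letters that myogenic bHLH factors and many others can bind, searched on both strands with overlapping matches counted. The Dmd windows lie at chrX:82948620-82948919 and chrX:85048045-85048344 on the plus strand, 2099425 bases apart, and the Utrn window at chr10:12861686-12861985 on the minus strand.
Dmd window 1: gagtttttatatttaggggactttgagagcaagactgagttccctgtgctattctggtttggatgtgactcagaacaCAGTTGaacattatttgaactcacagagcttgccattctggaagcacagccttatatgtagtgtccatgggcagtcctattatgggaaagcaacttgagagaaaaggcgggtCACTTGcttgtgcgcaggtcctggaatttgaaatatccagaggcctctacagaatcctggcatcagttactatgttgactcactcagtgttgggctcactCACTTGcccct
Dmd window 2: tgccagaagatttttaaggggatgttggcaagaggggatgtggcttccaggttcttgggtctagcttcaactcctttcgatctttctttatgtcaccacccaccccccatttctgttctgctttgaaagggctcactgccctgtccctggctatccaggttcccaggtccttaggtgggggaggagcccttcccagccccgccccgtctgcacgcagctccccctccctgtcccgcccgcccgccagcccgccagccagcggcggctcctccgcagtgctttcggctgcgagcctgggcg
Utrn: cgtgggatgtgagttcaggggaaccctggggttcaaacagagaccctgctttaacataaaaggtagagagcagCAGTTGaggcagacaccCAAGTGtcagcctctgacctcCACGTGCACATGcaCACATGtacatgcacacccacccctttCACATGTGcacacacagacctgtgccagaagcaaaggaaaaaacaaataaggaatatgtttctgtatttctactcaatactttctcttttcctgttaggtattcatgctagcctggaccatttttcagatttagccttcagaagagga
Dmd window 1 holds 3 E-boxes, a MEF2 site and a CArG box, the element that serum response factor binds. Dmd window 2 holds no E-box and 3 GC boxes (GGGCGG). The Utrn window holds 7 E-boxes. Of 32851 windows of this length in the table, 72.3% hold an E-box, 17.6% hold 3 or more, 35.7% hold a GC box, 3.19% a MEF2 site and 1.63% a CArG box. A match describes letters and is not a site in use, and a missing match says only that these letters are not in this window.

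Dtna encodes alpha-dystrobrevin, which binds dystrophin and the syntrophins under the membrane. Its brightest probe set, 1425292_at, read 10.09, 10.03 and 10.05 in CiCM, 9.84, 10.23 and 10.22 in CM, and 6.92, 6.40 and 6.45 in MEF. CiCM and CM arrays overlapped, and both lay far above MEF. The difference from MEF was 3.47 ± 0.17 for CiCM (limma adjusted p = 7.77e-08) and 3.51 ± 0.17 for CM (adjusted p = 2.08e-08), 11.1-fold and 11.4-fold. After 32 was added to the linear signals these were 3.095 and 3.13. CiCM minus CM was -0.04 ± 0.17 (adjusted p = 0.851), and the sign turned under centring (0.27) and levelling (0.54).

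The other Dtna probe sets did not all give that picture. All 6 tested ones exceeded MEF in CiCM, by 1.61 to 3.47, and 5 of the 6 did so in CM. Outside the brightest, 5 tested probe sets had CiCM above CM, by 0.42 for 1419223_a_at, 0.61 for 1426066_a_at, 0.77 for 1429768_at, 0.88 for 1456069_at and 0.98 for 1427588_a_at, none of them past the minimum size. Probe set 1427588_a_at did pass it without CM replicate 3 (1.30), CiCM replicate 1 (1.02) or CiCM replicate 2 (1.11). Probe set 1427588_a_at averaged 8.39 ± 0.28 in CiCM, 7.41 ± 0.56 in CM and 6.78 ± 0.23 in MEF (SD, n = 3), and its CM minus MEF difference of 0.63 did not pass (adjusted p = 0.0768). Over the mean of the probe sets CiCM minus CM was 0.73, opposite in sign to the brightest one, and the differences from MEF were 2.24 for CiCM and 1.51 for CM. Probe set 1453625_at, with 2.34 to 4.50 in CiCM and 0.08 to 4.13 in CM, was too dim to test. Against MEF, the calls in CM were lost for 1426066_a_at without MEF replicate 1 (0.99), for 1429768_at without CM replicate 3 (0.97) and for 1456069_at without CM replicate 2 (0.96).

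Dag1 encodes dystroglycan, which is cut into the laminin-binding alpha and the membrane-spanning beta subunit. Its brightest probe set, 1426778_at, read 12.59, 12.71 and 12.85 in CiCM, 12.97, 12.81 and 13.21 in CM, and 11.37, 11.47 and 11.24 in MEF. Every CiCM and CM array lay above every MEF array, and CiCM overlapped with CM. Dag1 exceeded MEF by 1.36 ± 0.12 in CiCM (limma adjusted p = 5.40e-06), a 2.56-fold difference, and by 1.64 ± 0.12 in CM (adjusted p = 3.93e-07), a 3.12-fold difference. After levelling on the hybridisation controls the CM difference was 0.84, under the size for a call. CiCM differed from CM by -0.28 ± 0.12 (adjusted p = 0.0565), and the sign turned under centring (0.03) and levelling (0.29). Of 4 probe sets, 3 were called higher than MEF in CiCM and 3 in CM, and 1423872_a_at stayed just under the minimum size at 0.88 and 0.93. That probe set passed in CM without CM replicate 2, at 1.06. Probe set 1426779_x_at fell under the minimum in CM without CM replicate 1 (0.97) or MEF replicate 3 (0.99), and 1456131_x_at in CiCM without CiCM replicate 3 (0.92) or MEF replicate 1 (0.95).

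The sarcoglycans gave both the largest difference among the 8 genes, in Sgca, and a call at the edge of the threshold, in Sgcd. Sgca encodes alpha-sarcoglycan, a subunit found in striated muscle. Its single probe set, 1422654_at, read 10.51, 10.65 and 10.71 in CiCM, 11.54, 11.88 and 12.07 in CM, and 5.83, 5.11 and 5.72 in MEF. The 3 groups did not overlap, and the MEF arrays lay under 6.58, in the range where signals scatter more. Sgca exceeded MEF by 5.07 ± 0.20 in CiCM (limma adjusted p = 1.50e-08) and by 6.27 ± 0.20 in CM (adjusted p = 1.03e-09), 33.6-fold and 77.4-fold on this scale. These came to 4.34 and 5.53 after 32 was added to the linear signals, and to 3.28 and 4.42 with the largest constant tried. Sgca was lower in CiCM than in CM by -1.20 ± 0.20 (adjusted p = 3.60e-04), or -0.90 after centring and -0.63 after levelling, both under the size for a call.

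Sgcb encodes beta-sarcoglycan, which forms the core of the sarcoglycan group and is carried by more tissues than Sgca. Its brightest probe set, 1419668_at, read 11.96, 11.63 and 11.72 in CiCM, 11.80, 11.77 and 11.83 in CM, and 9.92, 10.03 and 10.19 in MEF. CiCM and CM overlapped and both lay above MEF, by 1.72 ± 0.11 in CiCM (limma adjusted p = 4.65e-07) and 1.75 ± 0.11 in CM (adjusted p = 1.17e-07). After levelling the CM difference was 0.95. CiCM minus CM was -0.03 ± 0.11 (adjusted p = 0.835), and turned to 0.28 under centring and 0.55 under levelling. The other Sgcb probe sets disagreed with each other on that comparison. Probe set 1436678_at read 10.14, 9.91 and 10.34 in CiCM, 11.28, 11.41 and 11.37 in CM, and 7.90, 7.64 and 7.67 in MEF, and was lower in CiCM than in CM by -1.22 ± 0.13 (adjusted p = 1.51e-05), or -0.91 after centring and -0.65 after levelling, both under the size for a call. Probe set 1419667_at gave 0.61 ± 0.12 for the same comparison, the opposite sign, under the size for a call, with CiCM arrays at 10.57 to 10.88 above CM arrays at 9.91 to 10.25. Its CM minus MEF difference of 1.05 fell to 0.96 without CM replicate 1.

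Sgcd encodes delta-sarcoglycan, whose loss in hamsters and mice leads to cardiomyopathy. Its probe set, 1450805_at, was dim, at 6.74, 7.10 and 6.19 in CiCM, 7.13, 7.61 and 7.89 in CM, and 5.68, 6.19 and 4.41 in MEF. The groups just failed to overlap, since the highest MEF array and the lowest CiCM array both round to 6.19. CM exceeded MEF by 2.12 ± 0.47 (limma adjusted p = 0.00202), or 0.85 with the largest constant tried, under the size for a call. CiCM exceeded MEF by 1.25 ± 0.47 with an adjusted p of 0.0466, at the edge of the threshold. That call was lost without the filter on low signals (adjusted p = 0.0702), and with 32 added to the linear signals (0.80). The call was lost too under quantile normalization, centring and levelling (limma adjusted p = 0.078, 0.063 and 0.108). It was also lost without MEF replicate 3, where the difference was 0.74 (adjusted p = 0.152), and without MEF replicate 1 (adjusted p = 0.0670), CiCM replicate 1 (adjusted p = 0.103) or CiCM replicate 2 (adjusted p = 0.149). Leaving out CM replicate 2 or 3 gave limma adjusted p = 0.0588 and 0.0550. Between CiCM and CM the difference was -0.86 ± 0.47 (adjusted p = 0.130).

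The start regions of Sgca and Sgcb are shown beside each other because Sgca was under the median of the table in MEF and Sgcb was not. The source, window and capitals are those given for Dmd. The Sgca window is chr11:94976278-94976577 and the Sgcb window chr5:73647688-73647987, both on the minus strand.
Sgca: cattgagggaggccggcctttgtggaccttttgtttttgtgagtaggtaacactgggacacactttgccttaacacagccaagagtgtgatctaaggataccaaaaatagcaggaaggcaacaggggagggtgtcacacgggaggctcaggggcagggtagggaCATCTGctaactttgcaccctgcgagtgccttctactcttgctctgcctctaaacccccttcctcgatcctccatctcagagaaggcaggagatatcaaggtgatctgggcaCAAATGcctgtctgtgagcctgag
Sgcb: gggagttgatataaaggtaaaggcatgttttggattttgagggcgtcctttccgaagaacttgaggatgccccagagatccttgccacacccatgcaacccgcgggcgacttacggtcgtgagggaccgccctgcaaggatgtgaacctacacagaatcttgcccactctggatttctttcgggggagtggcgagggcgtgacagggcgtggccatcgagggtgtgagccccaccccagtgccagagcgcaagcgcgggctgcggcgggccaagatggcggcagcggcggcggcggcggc
The Sgca window holds 2 E-boxes and no GC box. The Sgcb window holds no E-box, 1 GC box and 1 TATA box (TATAAA), a motif found in 13.6% of all windows. Its GC content is 62.7%, against 52.7% in the Sgca window and a median of 52.7% over all windows. Across the 9 windows of the 7 genes for which one was at hand, 7 hold an E-box and 6 a GC box. The 2 Dag1 windows overlap, and the same E-box and 3 GC boxes are counted in each. The N-box (TTCCGG), known from synapse-specific genes of muscle, occurs in 0 of the 9 and in 14.9% of all windows. The M-CAT motif (CATTCC) of the TEAD factors occurs in 1 of them, that of Sgcd, and in 14.7% of all windows.

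Lama2 encodes the laminin alpha-2 chain, the main ligand of dystroglycan in the basement membrane of muscle. Its probe set, 1426285_at, read 8.81, 8.69 and 9.06 in CiCM, 10.81, 10.87 and 11.48 in CM, and 9.57, 9.51 and 9.38 in MEF. The groups did not overlap, and here CiCM was the lowest. Lama2 was lower in CiCM than in CM by -2.20 ± 0.18 (limma adjusted p = 1.64e-06), the largest difference between those groups among the 22 tested probe sets, and remained at -1.63 after levelling. CM exceeded MEF by 1.57 ± 0.18 (adjusted p = 1.38e-05), or 0.76 after levelling. CiCM minus MEF was -0.63 ± 0.18 (adjusted p = 0.0123), under the size for a call. The summed endothelial markers, at 179.5 to 223.5 in CiCM, 11112.7 to 12318.0 in CM and 426.4 to 681.6 in MEF, and the summed adipocyte markers given above had the same order of groups as Lama2. Of the adipocyte markers, only Fabp4 had that order by itself, at means of 7.63 in CiCM, 15.15 in CM and 11.00 in MEF. Adipoq averaged 4.49, 8.26 and 4.44 in the same groups, and Cidec 4.21, 4.17 and 3.47. The macrophage sums nearly met in CM and MEF, at 7399.2 to 8835.8 and 7252.1 to 7391.3. Csf1r was above MEF in CM by 0.84, while every other listed macrophage marker was below, from -0.0654 for Ptprc to -3.32 for Itgam. The part of these cell types in the Lama2 differences was not tested.

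**Figure D2:**
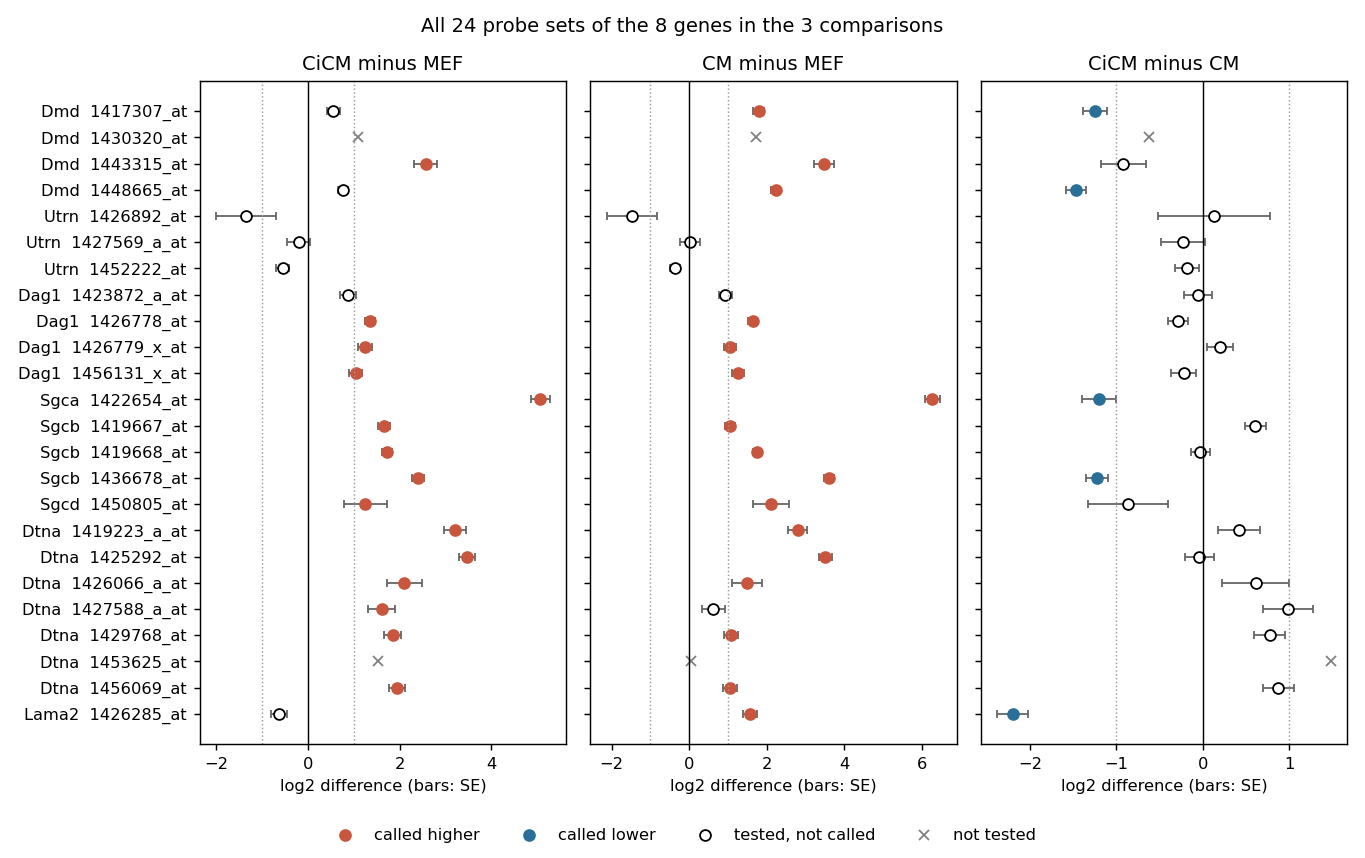
Log2 differences (horizontal axis) with their SE for each of the 24 probe sets in CiCM minus MEF, CM minus MEF and CiCM minus CM; filled points were called, open points were tested without a call and crosses were not tested. The filled points lie right of 1 for 15 of 22 tested probe sets in CiCM minus MEF and for 17 of 22 in CM minus MEF, while in CiCM minus CM the filled points lie left of -1 and belong to Dmd, Sgca, Sgcb and Lama2.

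Counted once per gene by the brightest probe set, 5 of the 8 genes rose in CiCM against MEF, namely Sgca, Dtna, Sgcb, Dag1 and Sgcd, beside 11.6% of 12559 tested genes. In CM against MEF 7 of 8 rose, Utrn being the exception, beside 22.2% of all genes. In CiCM against CM 3 of 8 fell, namely Lama2, Dmd and Sgca, beside 19.1% of all genes. These counts depend on the scaling. After levelling on the hybridisation controls, Dag1, Sgcb and Lama2 were under the size for a call in CM against MEF, and Utrn was called lower. Dmd and Sgca were then under that size in CiCM against CM. Sgcd lost its call in CiCM against MEF under the same levelling, at 1.02 (limma adjusted p = 0.108). The median over the 8 genes was 1.93 for CM minus MEF and -0.57 for CiCM minus CM, beside -0.03 over all tested genes for both. The comparisons with MEF share the MEF arrays and those with CM share the CM arrays, so they are not independent.

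Pairs of members were compared within each array, which removes any factor common to the whole array. Levels of different probe sets cannot be compared, so only the shift of the difference between groups is read. Dmd minus Utrn was -0.89, -1.09 and -1.31 in CiCM, -0.25, 0.57 and 0.23 in CM, and -2.33, -2.53 and -2.39 in MEF. The difference thus shifted toward Dmd by 1.32 in CiCM against MEF and by 2.60 in CM against MEF, and CiCM against CM gave -1.28. Sgca minus Sgcb shifted by 3.35 in CiCM against MEF, by 4.52 in CM against MEF and by -1.18 in CiCM against CM. The Sgca shifts against MEF were 2.65 and 3.81 after 32 was added to the linear signals, since Sgca was dim in MEF. Dmd minus Dag1 shifted by -0.59 in CiCM against MEF and by 0.60 in CM against MEF, in opposite directions, and by -1.18 in CiCM against CM. Groups did not overlap in any of these 9 comparisons, and each exact 2-sided permutation test gave p = 0.1, the smallest that 3 against 3 arrays allow, so none can pass 0.05 before or after adjustment. Centring and levelling multiply a whole array and leave these shifts as they are. Pairs were read on the brightest probe sets, and others gave other shifts. In CiCM minus MEF, Dmd 1443315_at was 2.57 and Dmd 1417307_at 0.56, beside 1.36 for Dag1. Over the mean of probe sets Dmd was 1.25 and Dag1 1.13. The sign of the Dmd minus Dag1 shift there thus depends on the Dmd probe set. In CiCM minus CM, Sgca was -1.20, beside -1.22 for Sgcb 1436678_at and 0.61 for Sgcb 1419667_at.

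**Figure D3:**
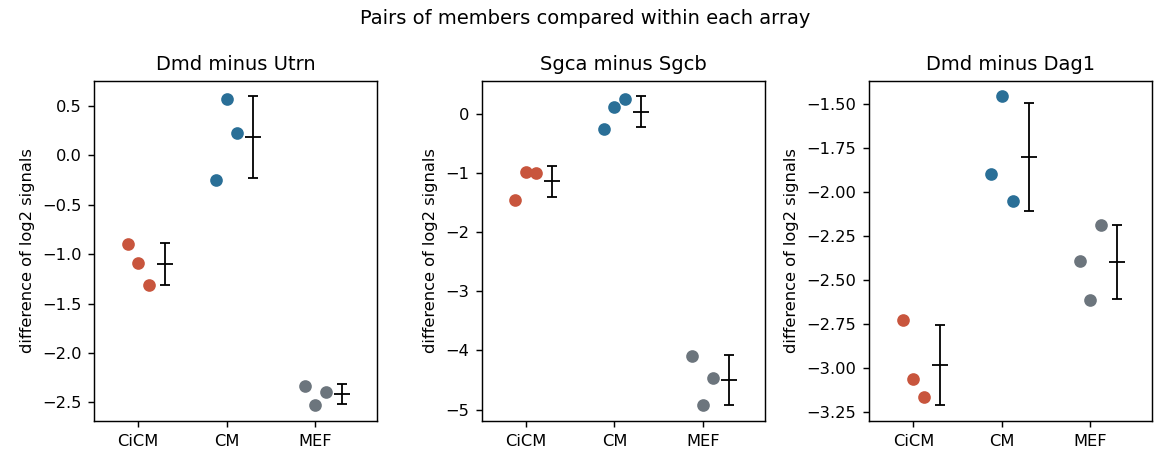
Within-array differences of log2 signals of the brightest probe sets (vertical axes, each with its own range) for Dmd minus Utrn, Sgca minus Sgcb and Dmd minus Dag1 on every array, with the mean and SD of each group. CiCM lies between CM and MEF for the pairs Dmd minus Utrn and Sgca minus Sgcb, and below both for Dmd minus Dag1.

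Around these 8 genes, 42 genes in 6 lists were tested, each by its brightest probe set. The shares of all 12559 genes called higher and lower were 11.6% and 12.3% in CiCM against MEF, 22.2% and 21.9% in CM against MEF, and 16.6% and 19.1% in CiCM against CM, with medians of -0.03 in each. The medians in the same order were 1.01, 0.29 and 0.49 for cytoplasmic partners, -0.09, 0.0059 and -0.18 for extracellular ligands, 0.46, 0.08 and 0.46 for glycosylation, and 3.21, 1.41 and 2.13 for membrane repair.

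Of the remaining sarcoglycans and sarcospan, 2 of 4 listed genes had a probe set with a single symbol. Sspn, the sarcospan that joins the sarcoglycans, read 11.34, 11.27 and 11.54 in CiCM, 13.14, 13.34 and 13.63 in CM, and 10.24, 10.17 and 10.15 in MEF. The groups did not overlap and kept the order seen for Dmd and Sgca. Sspn rose by 1.20 in CiCM (limma adjusted p = 2.03e-05; 0.97 after levelling and 0.92 over the mean of its probe sets) and by 3.18 in CM (adjusted p = 4.37e-09) against MEF, and was lower in CiCM than in CM by -1.99 (adjusted p = 2.78e-07). Sgce, epsilon-sarcoglycan, the relative of Sgca found outside muscle, averaged 10.70 ± 0.20 in CiCM, 9.77 ± 0.40 in CM and 10.87 ± 0.18 in MEF (SD, n = 3). It fell by 1.10 in CM against MEF (-1.10; adjusted p = 3.53e-04), but without CM replicate 3 it was -0.94 and not called, and over the mean of its probe sets the sign was opposite (0.39). CiCM minus MEF was -0.17 for Sgce and CiCM minus CM 0.94, neither called, although the second passed without CM replicate 1 (1.16) or CiCM replicate 3 (1.02) and was -0.58 over the mean of probe sets.

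Among 10 tested cytoplasmic partners, 5 rose in CiCM against MEF, 3 rose in CM against MEF, and in CiCM against CM 3 were higher and 2 lower. Sntb1, beta-1-syntrophin, read 11.20, 11.43 and 11.79 in CiCM, 7.87, 7.52 and 7.68 in CM, and 7.38, 7.44 and 7.88 in MEF. It stood out in CiCM alone, by 3.91 over MEF (limma adjusted p = 7.77e-08) and 3.79 over CM (adjusted p = 6.42e-08), while CM minus MEF was 0.12 (adjusted p = 0.577). The summed skeletal muscle markers given above were likewise highest in CiCM, although Ckm was higher in CM. The part of skeletal muscle markers in the Sntb1 difference was not tested. Nos1, the neuronal nitric oxide synthase that the syntrophins anchor, was higher in CiCM by 1.35 over MEF, or 0.89 with the largest constant tried, and by 1.86 over CM, or 1.14. Sntg1, gamma-1-syntrophin, read 4.30, 2.20 and 4.65 in MEF, near the floor. CiCM minus MEF for Sntg1 was 3.14, but 1.63 with 32 added and 0.76 with the largest constant, where it was not called. Over CM it was 1.89, or 1.23 and 0.62 with those constants, at a limma adjusted p of 0.0355 that became 0.0511 with a replicate block and 0.0571 to 0.105 in the fits that left out any 1 array of CiCM or CM. Synm, synemin, which ties dystrobrevin to intermediate filaments, rose by 1.98 in CiCM and 2.34 in CM against MEF. Its MEF mean of 5.71 was under 6.58, and with the largest constant the differences were 0.90, not called, and 1.13. Ank2 and Ank3, the ankyrins that help bring dystrophin and dystroglycan to the membrane, rose by 2.38 and 2.74 in CM against MEF, and Ank2 was lower in CiCM than in CM by -2.18. Over the mean of probe sets the CM minus MEF differences were 1.17 for Ank2 and 1.58 for Ank3, and CiCM minus CM of Ank2 was -0.9997 (limma adjusted p = 0.0672), not called.

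The extracellular ligands of dystroglycan had calls in both directions. Of 10 tested, 1 rose in CiCM against MEF, 3 rose and 4 fell in CM against MEF, and in CiCM set against CM 2 were higher and 3 lower. Most of these counts are near the shares of all genes given above. The farthest from its share was the 4 of 10 lower in CM than in MEF, beside 21.9% of all genes. Lama1, the laminin alpha-1 chain of early embryos, read 6.51, 8.08 and 8.31 in CiCM, 2.22, 2.63 and 1.79 in CM, and 7.07, 6.75 and 6.99 in MEF. It was near the floor in CM, by -4.73 against MEF (limma adjusted p = 2.13e-05; -0.92 with the largest constant tried), and CiCM exceeded CM by 5.42 (adjusted p = 1.14e-05), or 2.68 with 32 added and 1.35 with the largest constant. Lama5, another laminin alpha chain, rose by 2.65 in CM against MEF and by 1.01 in CiCM against MEF, a call lost at 0.93 with 32 added, 0.91 without CiCM replicate 3 and 0.96 without MEF replicate 2, and was -1.63 in CiCM minus CM. Egflam, pikachurin, a dystroglycan ligand of retinal synapses, rose by 2.54 in CM against MEF and was -2.49 in CiCM minus CM. Slit2, a guidance protein that binds dystroglycan, went the other way, at -3.20 in CM against MEF and 2.59 in CiCM minus CM.

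Of 12 tested enzymes that build the laminin-binding sugar of dystroglycan, 1 rose and 1 fell in CiCM against MEF, 1 rose and 2 fell in CM against MEF, and 2 were higher in CiCM than in CM. The counts for CiCM against MEF are near the shares of all genes given above. So is the count higher in CiCM than in CM, beside 16.6% of all genes. None was called lower in CiCM than in CM by limma, against 19.1% of all genes. At a limma adjusted p under 0.05 with no minimum size, 6 were higher and 1 lower in CiCM against MEF, 6 and 3 in CM against MEF, and 6 and 1 in CiCM against CM. The shares of all genes without a minimum size were not counted, so these counts cannot be set against a background. Gmppb, which makes GDP-mannose, fell by 1.28 in CiCM (-1.28; limma adjusted p = 5.83e-04) and by 2.13 in CM (-2.13) against MEF. B3galnt2, a transferase of the core sugar, rose by 1.06 in CiCM against MEF and 1.19 against CM, but the difference from MEF was 0.99 without CiCM replicate 1, and over the mean of its probe sets the differences were 0.54 and 0.15. Dpm2, a subunit of dolichol-phosphate-mannose synthase, was -1.18 in CM minus MEF and 1.09 in CiCM minus CM. Pomgnt1, another transferase, just passed in CM against MEF at 1.00 and stood at 0.63 after centring, 0.20 after levelling, 0.99 without CM replicate 1, 0.94 without CM replicate 3 and 0.82 without MEF replicate 3.

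The integrins that bind laminin beside dystroglycan took different courses. Of 4 tested, 1 rose and 1 fell in CiCM against MEF, 2 rose and 1 fell in CM against MEF, and 2 were higher and 1 lower in CiCM set against CM. Itga7, the alpha-7 chain of muscle, read 11.62, 11.67 and 12.09 in CiCM, 10.66, 10.65 and 11.00 in CM, and 7.90, 7.74 and 7.54 in MEF. It rose by 4.07 in CiCM (limma adjusted p = 1.40e-08) and 3.04 in CM (adjusted p = 3.39e-08) against MEF, and CiCM minus CM was 1.02, which fell under 1 without CM replicate 1 (0.97), without CM replicate 2 (0.96) and without CiCM replicate 3 (0.87). Itga6, the alpha-6 chain of epithelia and endothelium, read 7.10, 7.32 and 6.67 in CiCM, 11.14, 11.15 and 11.45 in CM, and 9.96, 10.00 and 9.95 in MEF. It fell by 2.94 in CiCM against MEF (-2.94; adjusted p = 2.12e-07), was -4.22 in CiCM minus CM (adjusted p = 1.11e-08), and rose by 1.27 in CM against MEF, or 0.91 after centring and 0.47 after levelling, both without a call. Itgb1, the beta-1 chain that pairs with these, was -2.10 in CM minus MEF, -0.72 in CiCM minus MEF without a call, and 1.38 in CiCM minus CM. Over the mean of its probe sets these were -0.49, 0.0060 and 0.49. Itga3, alpha-3, was not called, at 0.71, 0.96 and -0.25 for CiCM minus MEF, CM minus MEF and CiCM minus CM. Its CM minus MEF difference passed without CM replicate 2 (1.29) or MEF replicate 1 (1.01), and its CiCM minus CM difference turned to 0.0591 after centring and 0.33 after levelling.

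Among 4 tested partners in membrane repair and limb-girdle disease, 3 rose in CiCM against MEF, 2 rose and 1 fell in CM against MEF, and 2 were higher in CiCM than in CM. Cav3, caveolin-3 of the muscle membrane, which binds dystroglycan, read 12.43, 12.49 and 12.50 in CiCM, 10.68, 11.37 and 11.48 in CM, and 2.63, 5.42 and 4.70 in MEF. Its MEF arrays were near the floor, and the differences were 8.22 for CiCM (limma adjusted p = 7.31e-07) and 6.93 for CM (adjusted p = 8.12e-07). With 32 added these were 6.70 and 5.42, and with the largest constant 5.255 and 4.01. For Cav3, CiCM minus CM was 1.30 (adjusted p = 0.0597), and the call appeared in 9 alternatives, among them centring (1.60), a replicate block (adjusted p = 0.0245) and the fits without MEF replicate 1 (adjusted p = 8.98e-04) or 2 (adjusted p = 0.0259). Dysf, dysferlin, which reseals the membrane, rose by 2.56 in CiCM and 2.38 in CM. Capn3, the muscle calpain, was 3.87 above MEF in CiCM and 3.42 above CM, while CM minus MEF was 0.45 (adjusted p = 0.117). Myof, myoferlin of fusing myoblasts and other cells, was -3.73 in CM minus MEF, -0.76 in CiCM minus MEF without a call, and 2.97 in CiCM minus CM. Over the mean of its probe sets these were -1.46, -0.0104 and 1.45. Trim72, another repair protein, was too dim to test.

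**Figure D4:**
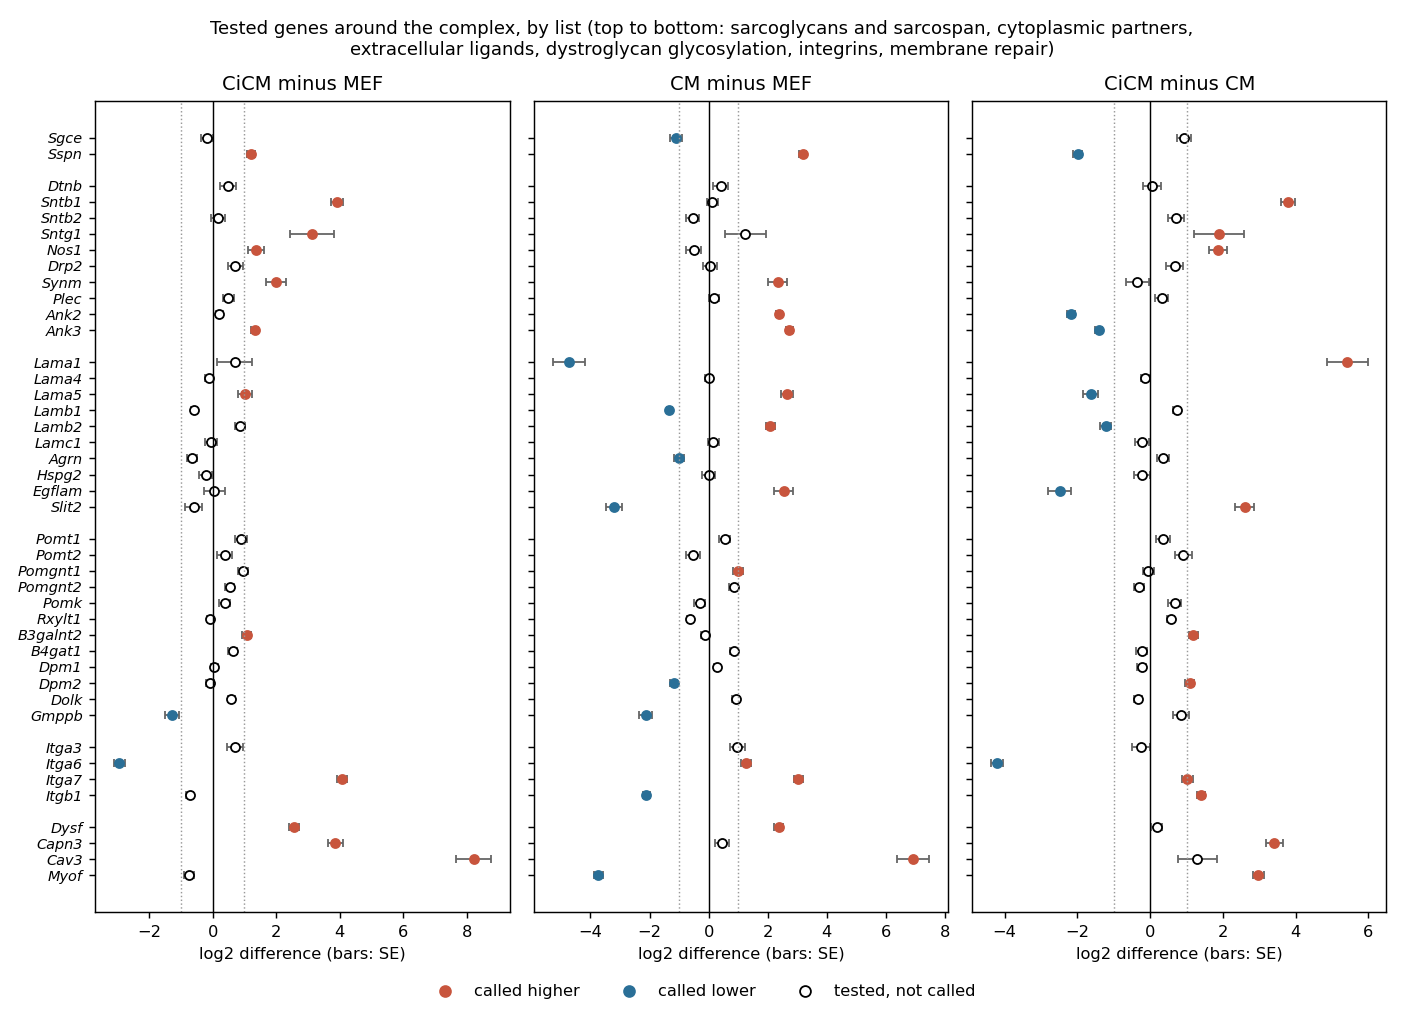
Log2 differences (horizontal axis) with their SE for the 42 tested genes around the complex in 6 lists, for CiCM minus MEF, CM minus MEF and CiCM minus CM; filled points were called and open points were not. Cav3 and Itga7 lie far right in both panels against MEF, while Sntb1 and Capn3 lie far right in both panels that set CiCM against another group.

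The genes whose profile over the 9 arrays lay closest to that of each member were found by the root mean square difference of values centred on each gene's own mean, among 12558 genes. For Dmd these were Ndufs4, Sdhd and Ndufs3, subunits of mitochondrial respiratory complexes, at 0.113, 0.114 and 0.116, against a median of 1.10 over all genes. Ndufs4 gave 0.69 for CiCM minus MEF, 2.03 for CM minus MEF and -1.34 for CiCM minus CM. For Sgca they were Coq8a, a kinase-like protein of coenzyme Q synthesis, Fhod3, a formin of the sarcomere, and Rbm24, a splicing factor of striated muscle, at 0.186, 0.249 and 0.286 against a median of 2.79. For Dtna they were Smtnl2, Rtn2 and Synpo2 at 0.221, 0.249 and 0.274 against 1.77, and for Sgcb they were Nkiras1, Pltp and Prkaca at 0.119, 0.126 and 0.127 against 1.03. Dag1 lay closest to Fam234a (0.0546), Trak1 (0.0910) and Ndrg4 (0.0943), Utrn to Ptgfrn (0.0681), B4galt6 (0.0945) and Oat (0.108), and Lama2 to Plxnd1 (0.180), Krba1 (0.185) and Ppp1r3d. Sgcd, with dim signals, had its nearest genes farther off, Gnb3 at 0.316, Ppp1r3f at 0.323 and Syt3 at 0.370. The points share 3 groups and array scaling, and the distances describe these arrays only.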

How the data were processed

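Total RNA of 3 CiCM, 3 CM and 3 MEF samples was hybridised to 1-colour Affymetrix arrays after labelling with a 3' amplification kit, per the labels' protocols. The deposited values are log2 signals of 45101 probe sets; MAS5 is named, without a version, per the submitters' processing notes. The log2 scale was read from the values: after 2 to the power of each deposited value, each array had a mean of 500.003 once 2% of the values at either end were trimmed. Global scaling of that kind cannot show a change common to most transcripts. Scan dates and detection calls were not analysed here, so groups and array batches cannot be told apart where batches followed groups. The number of arrays limits the precision.

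Probe sets were named through the platform annotation, which can be old: 34945 had 1 symbol, 932 several, 9160 none and 64 were controls. No symbol needed an update through its Entrez identifier. A gene was its probe set with the highest mean. Differences were tested with limma 3.58.1 (R 4.3.3; lmFit and 2-sided eBayes tests with a trend) fitted to the 9 arrays together, Benjamini-Hochberg adjusted over 26547 probe sets with a group mean of at least 6.58. Some genes of the lists are not reported here. The members and lists were chosen with earlier results of these data known. Named are the 8 members with all probe sets, up to 4 called genes per list and comparison by size, any gene of lists of at most 6, the 3 pairs and the 3 nearest genes of each member; other values of a named list gene were added. Motifs were searched in RefSeq windows with Python 3.11.15, and figures drawn with matplotlib 3.10.9. Alternatives were 1, 32 or a larger constant added to the linear signal, no filter or one at the 75th percentile (8.91), quantile normalization, centring, levelling on 18 hybridisation control probe sets, the mean over probe sets, 1 probe set per gene, a fit of 2 groups at a time, array weights, eBayes without its trend, calls at any size, a replicate block and leaving out each array.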

Additional observations from a re-analysis of the deposited data

How the results depend on the processing

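The 15 probe sets higher in CiCM than in MEF ranged from 11 to 18 over 22 alternatives. The probe sets lower in CiCM than in MEF, 0 in the analysis as reported, were 1 with only the 2 groups compared and with array weights, 2 without a minimum difference, and 0 to 1 when an array was left out. The 17 higher in CM than in MEF were 11 with the largest constant added to the linear signals, 7 after levelling on the hybridisation controls and 15 to 17 when an array was left out. Those lower in CM than in MEF were 1 under quantile normalization, centring, array weights and no minimum difference, 2 after levelling, and 0 to 1 when an array was left out. Probe sets higher in CiCM than in CM were 1 under quantile normalization, 3 after centring, 5 after levelling, 4 without a minimum difference and 0 to 1 when an array was left out. The 5 lower ones were 2 after centring, 1 after levelling and 5 to 6 when an array was left out. Centring moved the median of all tested probe sets to -0.37 in CM minus MEF and 0.27 in CiCM minus CM, and levelling to -0.85 and 0.55, and levelling gave 3190 probe sets higher and 11520 lower in CM than in MEF, against 6373 and 5725. In CiCM against CM, levelling gave 8324 probe sets higher and 2857 lower, against 4194 and 5412. The cause of these changes was not tested beyond the shift of the medians.

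Some differences changed sign. CiCM minus CM was 0.13 after centring and 0.39 after levelling for Utrn, 0.0253 and 0.29 for Dag1, 0.28 and 0.55 for Sgcb, 0.27 and 0.54 for Dtna, 0.25 and 0.52 for Dag1 1423872_a_at, 0.0769 and 0.34 for Utrn 1427569_a_at (0.0719 under quantile normalization), 0.0898 and 0.36 for Dag1 1456131_x_at, and 0.0591 and 0.33 for Itga3. It was 0.73 for Dtna and -0.58 for Sgce over the mean of probe sets. With 1 array left out it ran over -0.12 to 0.0416 for Sgcb (positive without CiCM replicate 2), -0.17 to 0.0287 for Dtna (positive without CM replicate 2 or 3), -0.19 to 0.0699 for Dag1 1423872_a_at (positive without CiCM replicate 2 or CM replicate 1), and -0.64 to 0.62 for Utrn 1426892_at (negative without CiCM replicate 3 or CM replicate 3), which was -0.0190 with 32 added and -0.0267 with the largest constant. CM minus MEF of Utrn 1427569_a_at was -0.27 under quantile normalization, -0.34 after centring, -0.77 after levelling, -0.0101 with array weights, and -0.0389 to 0.12 with 1 array left out (negative without CM replicate 1 or MEF replicate 3). CM minus MEF was -0.17 for Dtna 1427588_a_at and -0.35 for Capn3 after levelling, and 0.39 for Sgce over the mean of probe sets. CiCM minus MEF of Itgb1 was 0.0060 over that mean.

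Of the 8 genes, Sgcd in CiCM against MEF kept its call in 3 of 9 fits that left out an array. With the replicate block the counts were 15 higher in CiCM against MEF, 17 higher in CM against MEF and 5 lower in CiCM against CM, as without it; same-numbered arrays correlated at -0.0093 to 0.0504 in their deviations from group means, so they were not treated as pairs. Signals under 6.58 limit Sgca, Sgcd, Dmd 1443315_at and Dtna 1426066_a_at in MEF, where a fold depends on the constant added.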
